A study of Mus musculus with 6 samples.

Results

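Neutrophil granule and maturation genes encode the proteins that developing neutrophils pack into their granules and the enzymes and receptors they acquire as they mature. The group described here holds 38 genes, chosen by symbol from the 30037 named genes of a table of expression in leukaemic progenitor cells. They were sorted by known granule stage into 6 primary granule genes, 10 secondary granule genes, 12 tertiary granule and late maturation genes, and 10 genes that belong to no single stage. Of the 38, 36 passed the filter on low values (at least 1 on the log2 scale in at least 3 libraries). The 2 that did not were Olfm4, which codes for the granule glycoprotein olfactomedin 4 and was listed at 0 in all 6 libraries, and the lysozyme gene Lyz1, which lay between 0.19 and 0.22.

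The RNA came from L-GMP cells, a leukaemic cell population named for its likeness to granulocyte-macrophage progenitors, sorted from marrow of AML (acute myeloid leukaemia) mice that were 8 to 10 weeks old. One group was wild type (WT, 3 libraries) and the other lacked the arginine methyltransferase gene Prmt6 (Prmt6-/-, 3 libraries). Both carried leukaemia; the driving oncogene and how the Prmt6 allele was made are not given in the sources used here. Nothing in the labels says that libraries of a group came from separate mice, so p-values cover the spread among these 6 libraries alone, and that spread may be technical.

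Granule proteins are made in waves and sorted by the time of their synthesis. Primary (azurophil) granules fill at the promyelocyte stage with myeloperoxidase and serine proteases, secondary (specific) granules at the myelocyte and metamyelocyte stages with lactoferrin and other antimicrobial proteins, and tertiary (gelatinase) granules last. A granulocyte-macrophage progenitor is known to express the primary genes, whereas secondary and tertiary genes mark cells further along. C/EBP family factors and PU.1 (encoded by Spi1) are well-known activators of these genes.

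The values are the authors' deposited log2 expression values, normalized between libraries. A difference is Prmt6-/- minus WT on that scale, and "rose" and "fell" are used where the limma adjusted p was under 0.05 over the 15454 genes tested. That scale compresses genes of low level. For genes that limma and the authors' deposited table both called, the difference was divided by the authors' log2 fold change. The median ratio was 0.105 at means under 5, 0.674 at 5 to under 10 and 0.881 at 10 or more. Read depth is unknown. Libraries of one genotype correlated across genes at a Pearson r of 0.9987 to 0.9992, and those of different genotypes at 0.9933 to 0.9961. Prmt6 itself was lower in all 3 knockout libraries, at 5.42, 5.46 and 5.48 against 7.82, 7.60 and 7.41. On this compressed scale Prmt6 differed by -2.16, where the authors' deposited table gives a log2 fold change of -7.66 (adjusted p = 3.05e-27). Among genes of the sort, Kit (9.66 to 10.30), Cd34 (10.36 to 10.56) and the Fc receptor gene Fcgr3 (13.18 to 13.39) were present in all libraries. Fcgr2b, the gene of the inhibitory Fc receptor, fell by 0.88 (limma adjusted p = 0.000507), and Kit, with a difference of -0.29 (limma adjusted p = 0.0961), is called lower in the authors' deposited table (adjusted p = 0.0481). Ly6a, which codes for the stem cell antigen Sca-1, was low at 2.58 to 2.64, and Ly6g, the surface marker of mature neutrophils, was low at 1.90 to 1.99.

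Of the 36 tested members 9 rose and 14 fell in the knockout, a share of 63.9% called. Across all tested genes 33.0% were called, 15.0% as higher and 18.0% as lower. The groups did not overlap for 26 members, 11 higher and 15 lower, against 47.4% of all tested genes (23.0% higher and 24.4% lower). The authors' deposited table called 9 members higher and 11 lower, where it called 21.7% of the 22105 genes it tested, 9.50% as higher and 12.2% as lower. The median difference of the members was -0.10 (range -1.89 to 2.23), against 0.01 for all tested genes. Many of these members are abundant, and differences of low genes are compressed, so the members' share and the share over all genes are not a matched comparison. Without knockout library 1 only 9 members, and without knockout library 2 only 8, were called lower. Calls were also counted by stage, each with few genes. Among primary granule genes 2 rose and 0 fell of 6, with a median of 0.15. That share of 33.3% called lay near the 33.0% of all tested genes, and the shares of the other stages were larger. Among secondary granule genes 2 rose and 4 fell of 9 tested (median -0.24). Secondary genes called higher numbered 0 or 1 when any 1 library was left out. In the tertiary and late group 1 rose and 5 fell of 12 (median -0.12), and of the 9 tested genes of no single stage 4 rose and 5 fell (median -0.38). No test compared the stages with each other. In bulk RNA, a smaller share of cells of one kind and less RNA per cell cannot be told apart.

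**Figure D1:**
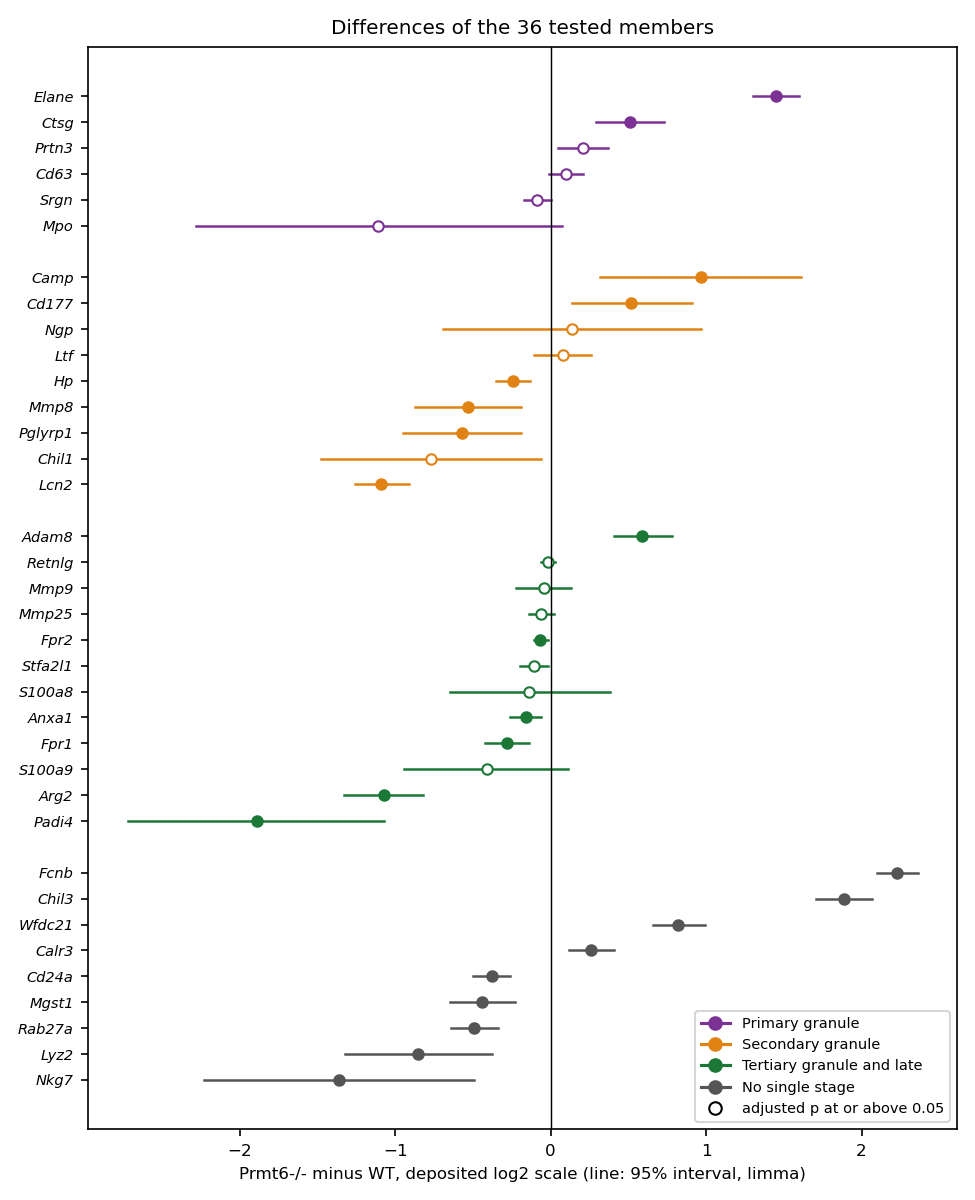
Difference between Prmt6-/- and WT on the deposited log2 scale for the 36 tested members, grouped by granule stage, with the 95% interval of limma as a line. Filled points passed an adjusted p of 0.05; Fcnb at 2.23 is farthest to the right and Padi4 at -1.89 farthest to the left, and the interval of Mpo crosses 0.

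Primary granule genes did not share one size or direction of difference. Elane, which codes for neutrophil elastase, had wild-type values of 16.42, 16.54 and 16.72 and knockout values of 18.01, 18.04 and 17.98. The knockout libraries lay within 0.06 of each other and far above every wild-type library. Elane rose by 1.45 (SE 0.0664, 95% interval 1.30 to 1.60, limma adjusted p = 3.65e-06), a 2.73-fold higher level. In the quantile-normalized values its increase was smaller, at 0.81 or 1.76-fold (limma adjusted p = 3.98e-07). Its exact permutation p was 0.1, the smallest that 3 against 3 libraries allow; this holds for every member whose groups did not overlap. Elane lies on chromosome 10 (79886247 to 79888215, GRCm38, GENCODE).

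Ctsg, the gene of the related protease cathepsin G (chromosome 14, 56099881 to 56102574), stood at 14.83, 14.62 and 15.08 in wild-type cells against 15.41, 15.34 and 15.30 in knockout cells. It rose by 0.51 (SE 0.0972, limma adjusted p = 0.00386). Prtn3, the gene of proteinase 3, lies 3.07 kb from Elane on the same strand. Its values were 13.76, 13.94 and 14.04 against 14.07, 14.10 and 14.20, so the groups did not overlap but came within 0.03 of each other. The Prtn3 difference of 0.21 did not pass (limma adjusted p = 0.0510). It passed without wild-type library 3 (0.27, adjusted p = 0.0190), with replicate number blocked (adjusted p = 0.0112), in the quantile-normalized values (0.31, adjusted p = 0.00690), with intensity-dependent centring (0.26, adjusted p = 0.0209) and in the authors' deposited table (adjusted p = 0.0254), and it was 0.13 without wild-type library 1.

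Within each library the log2 gap between Elane and Prtn3 was 2.66, 2.59 and 2.69 in wild-type cells against 3.94, 3.94 and 3.78 in knockout cells. Elane was thus 2.36-fold higher relative to its neighbour in the knockout (difference of the gaps 1.24, exact permutation p = 0.1). Relative to Ctsg the Elane gap grew by 0.94, from 1.72 ± 0.17 (SD, n = 3) to 2.66 ± 0.05 (exact permutation p = 0.1). In the quantile-normalized values both gap changes were smaller, at 0.51 for Elane against Prtn3 and 0.18 for Elane against Ctsg. That method gives every library the same set of values, which limits differences among the highest genes. Elane in the knockout lies at the highest value in the data (18), so the smaller gaps cannot be read as a separate check.

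The promoters of both neighbours are shown because their genes sit side by side and differed in size of change. Each is the 250 bases before the RefSeq transcription start on GRCm38.p6, read 5′ to 3′ on the gene's strand. Capitals mark matches, on either strand, to any of 4 motifs: TTNNGNAA for C/EBP factors, GAGGAA for PU.1, TAACNG for MYB and TGTGGT for RUNX factors. Elane is at chr10:79886062-79886311, plus strand, and Prtn3 at chr10:79879417-79879666, plus strand.
Elane: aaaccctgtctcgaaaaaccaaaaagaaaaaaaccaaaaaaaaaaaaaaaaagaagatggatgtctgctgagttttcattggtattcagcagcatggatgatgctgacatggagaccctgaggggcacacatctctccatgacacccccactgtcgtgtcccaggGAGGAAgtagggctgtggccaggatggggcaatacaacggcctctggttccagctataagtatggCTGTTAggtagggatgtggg
Prtn3: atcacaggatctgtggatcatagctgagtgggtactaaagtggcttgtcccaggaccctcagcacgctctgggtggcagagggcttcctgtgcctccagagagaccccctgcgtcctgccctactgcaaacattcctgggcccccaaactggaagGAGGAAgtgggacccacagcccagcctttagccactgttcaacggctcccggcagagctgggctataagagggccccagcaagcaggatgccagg
Both windows hold the PU.1 letters GAGGAA on the gene's own strand, with the first base at position -85 for Elane and -95 for Prtn3, counted back from the start. The Elane window also holds a MYB match on the opposite strand at -20. Neither holds a match to the C/EBP letters. RefSeq windows were found for 33 of the 38 members (37 windows). The C/EBP letters occurred in 70.3% of these windows against 36.8% of all 32851 windows, and the PU.1 letters in 45.9% against 23.3%. For MYB the shares were 16.2% and 19.8%, and for RUNX 21.6% and 14.0%. The median GC content was 51.6% in member windows and 52.4% in all windows. A match describes letters in the window and does not show that a factor binds there.

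Mpo, the gene of myeloperoxidase, which makes hypochlorous acid from hydrogen peroxide, was the most scattered member of its stage. Its values were 15.27, 15.19 and 16.29 in wild-type cells against 13.34, 14.37 and 15.72 in knockout cells. The groups overlapped, and the knockout libraries alone spanned 2.39. The Mpo difference of -1.11 (95% interval -2.28 to 0.07) did not pass (limma adjusted p = 0.139, exact permutation p = 0.300). Without knockout library 3 it was -1.73 and passed (adjusted p = 0.0115), without knockout library 1 it was -0.53, and in the fit blocked by replicate number it passed at an unchanged size (adjusted p = 0.00959). The Elane-to-Mpo gap nevertheless was wider in all 3 knockout libraries, at 4.67, 3.67 and 2.25, than in the wild type, at 1.15, 1.34 and 0.44 (exact permutation p = 0.1). This gap grew by 2.55, and by 1.86 in the quantile-normalized values.

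Cd63, which codes for a tetraspanin of the azurophil granule membrane, differed by 0.10 (limma adjusted p = 0.152), and by 0.06 without knockout library 3. It passed after quantile normalization (0.25, adjusted p = 0.00272) and after intensity-dependent centring (0.15, adjusted p = 0.0419). Srgn, the gene of serglycin, the proteoglycan core that holds proteases inside granules, differed by -0.09 (limma adjusted p = 0.113), which turned to 0.06 after quantile normalization. For each of these genes, the libraries of a genotype lay within 0.12 of one another.

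**Figure D2:**
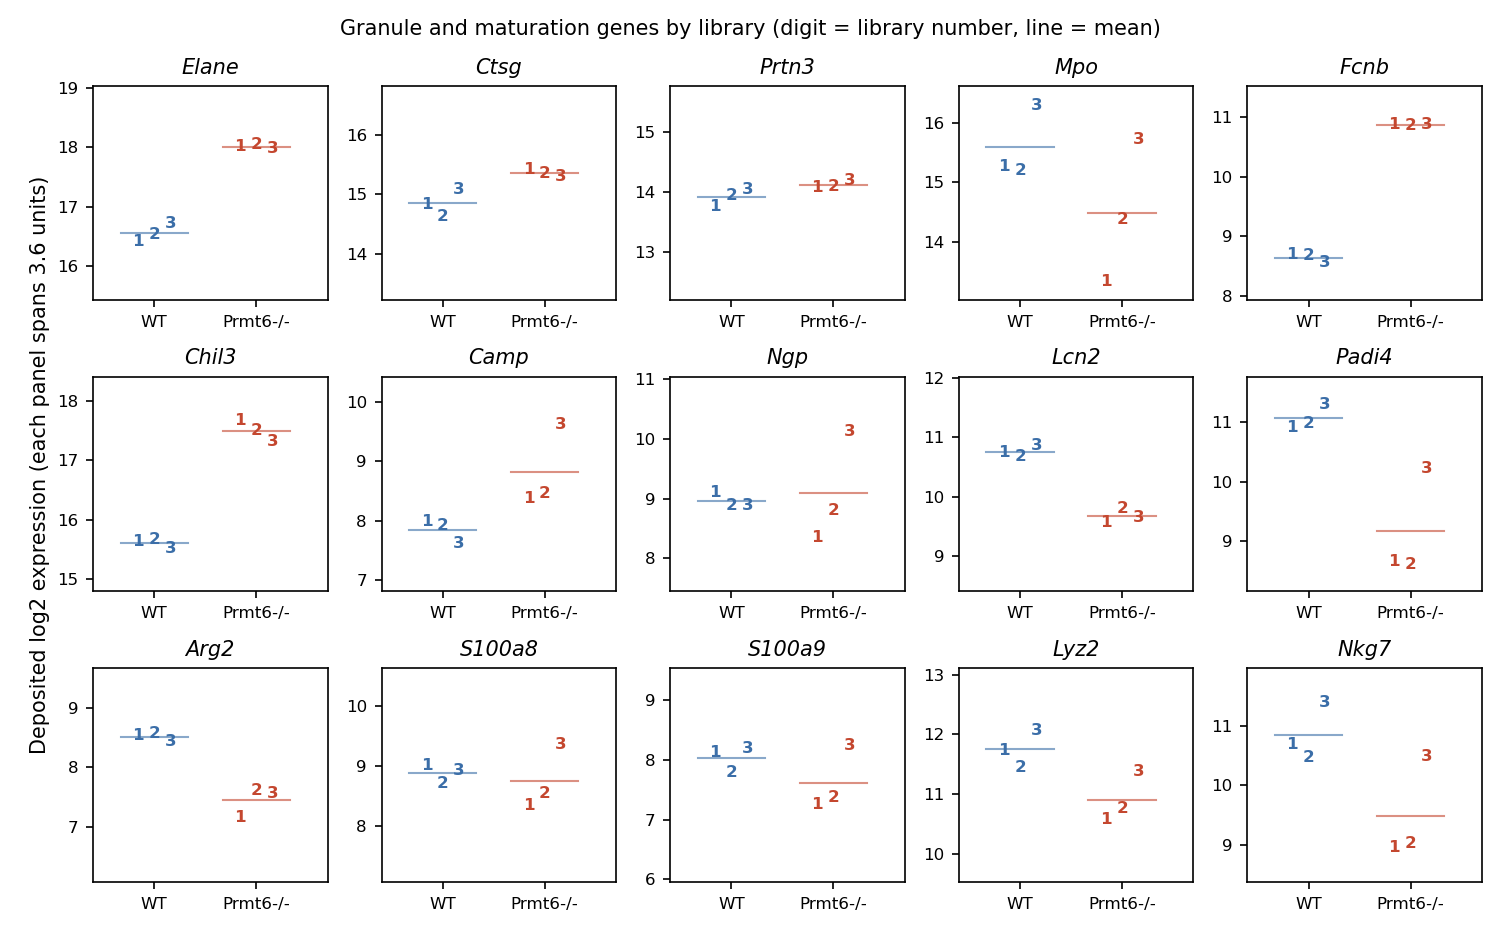
Deposited log2 values of 15 members in each library, WT on the left and Prmt6-/- on the right of each panel, with the library number as the symbol and a line at the group mean; every panel spans 3.6 log2 units on its own axis. Elane, Fcnb and Chil3 are tight and apart between genotypes, whereas knockout library 3 stands above knockout libraries 1 and 2 for Mpo, Camp, Ngp, Padi4, S100a8, S100a9, Lyz2 and Nkg7.

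The largest increases came from secreted lectin-like proteins that are expressed early in the neutrophil lineage and that were not assigned to a single granule stage. Fcnb codes for ficolin B, a pattern-recognition lectin (chromosome 2, 28076378 to 28084885). Its values were 8.69, 8.67 and 8.56 in wild-type cells against 10.87, 10.86 and 10.88 in knockout cells, with 0.02 between the highest and lowest knockout library. Fcnb rose by 2.23 (SE 0.0583, limma adjusted p = 5.20e-07), a 4.69-fold increase on this scale. The authors' deposited table gives it a log2 fold change of 2.69. Chil3, the gene of the chitinase-like protein Ym1 (chromosome 3, 106147554 to 106167564), stood at 15.63, 15.67 and 15.52 against 17.67, 17.50 and 17.32. The genotypes stood far apart, and Chil3 rose by 1.89 (SE 0.0807, limma adjusted p = 2.85e-06), or 3.70-fold. Chil3 has close paralogs, so reads of relatives could enter its value, and it lies 4.08 Mb from Prmt6. The part of this position in the result was not tested.

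Across all tested genes 1.95% were called with a difference of at least 1, that is 2-fold, on the deposited scale. Among the members these were Elane, Fcnb and Chil3, which rose, and Lcn2, Padi4, Arg2 and Nkg7, which fell. The promoters of both lectin-like genes are shown beside those of Lcn2 and Padi4, the members of the secondary and tertiary groups that fell most, with the same motifs in capitals. Fcnb is at chr2:28084879-28085128, minus strand, Chil3 at chr3:106167565-106167814, minus strand, Lcn2 at chr2:32387740-32387989, minus strand, and Padi4 at chr4:140774204-140774453, minus strand.
Fcnb: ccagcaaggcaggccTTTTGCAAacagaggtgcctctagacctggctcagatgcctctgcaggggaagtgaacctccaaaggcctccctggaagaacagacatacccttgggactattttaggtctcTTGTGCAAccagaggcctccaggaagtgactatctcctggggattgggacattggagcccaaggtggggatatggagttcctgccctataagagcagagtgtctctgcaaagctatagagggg
Chil3: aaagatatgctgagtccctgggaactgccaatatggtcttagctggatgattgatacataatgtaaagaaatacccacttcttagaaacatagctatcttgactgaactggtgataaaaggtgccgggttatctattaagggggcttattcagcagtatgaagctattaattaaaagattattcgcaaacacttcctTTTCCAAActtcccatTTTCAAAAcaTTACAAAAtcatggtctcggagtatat
Lcn2: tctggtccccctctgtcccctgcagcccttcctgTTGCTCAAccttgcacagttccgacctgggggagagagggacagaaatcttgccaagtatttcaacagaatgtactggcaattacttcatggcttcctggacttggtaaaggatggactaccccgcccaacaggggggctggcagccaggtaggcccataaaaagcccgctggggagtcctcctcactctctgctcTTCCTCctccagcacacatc
Padi4: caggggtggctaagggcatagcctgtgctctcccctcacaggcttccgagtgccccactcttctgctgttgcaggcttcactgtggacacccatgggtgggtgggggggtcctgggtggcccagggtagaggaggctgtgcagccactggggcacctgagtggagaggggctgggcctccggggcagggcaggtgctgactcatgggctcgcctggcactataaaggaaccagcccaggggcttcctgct
Fcnb holds 2 C/EBP matches, at -235 and -123 on its own strand, and Chil3 holds 3, at -53, -37 and -27, all on the opposite strand. Lcn2 holds a C/EBP match at -216 and a PU.1 match at -20, both on the opposite strand, and Padi4 holds none of the 4 motifs. The GC content of these windows ran from 36.4% for Chil3 to 66.0% for Padi4. Matches thus occurred in promoters of genes that rose and of genes that fell.

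Wfdc21, which codes for a small secreted protein with a whey acidic protein domain, rose by 0.82, from 6.10 ± 0.07 to 6.92 ± 0.09 (SD, n = 3; limma adjusted p = 6.66e-05). The authors' deposited table gives it a log2 fold change of 2.11. Calr3, the gene of a calreticulin-like chaperone, rose by 0.26 (limma adjusted p = 0.0126), a call that ended without knockout library 2 (adjusted p = 0.0534).

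The other genes of no single stage fell. Nkg7, which codes for a membrane protein of cytotoxic granules, had values of 10.68, 10.46 and 11.39 against 8.95, 9.02 and 10.48. Knockout library 3 reached into the wild-type range, just above wild-type library 2. Nkg7 fell by 1.36 (limma adjusted p = 0.0242), and the call ended without wild-type library 1 or 3 or knockout library 1 or 2 (adjusted p 0.0540 to 0.0932), in limma without trend (0.0665) and in the authors' deposited table (0.0941). Lyz2, the myeloid lysozyme gene, had values of 11.73, 11.45 and 12.06 against 10.57, 10.76 and 11.38 and fell by 0.85 (limma adjusted p = 0.0127; 0.0527 without knockout library 2). Lyz1 and Lyz2 are near-identical neighbours, 5.47 kb apart. Lyz1 lay between 0.19 and 0.22 in all 6 libraries, so little signal was counted to it in either genotype. How the authors' counting divided shared reads was not tested. Rab27a, a small GTPase that docks granules at the plasma membrane, fell by 0.49 (SE 0.0667, limma adjusted p = 0.000649). Mgst1, a microsomal glutathione transferase, fell by 0.44, and Cd24a, a surface glycoprotein of immature granulocytes, by 0.38 (limma adjusted p = 0.00678 and 0.000770).

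**Figure D3:**
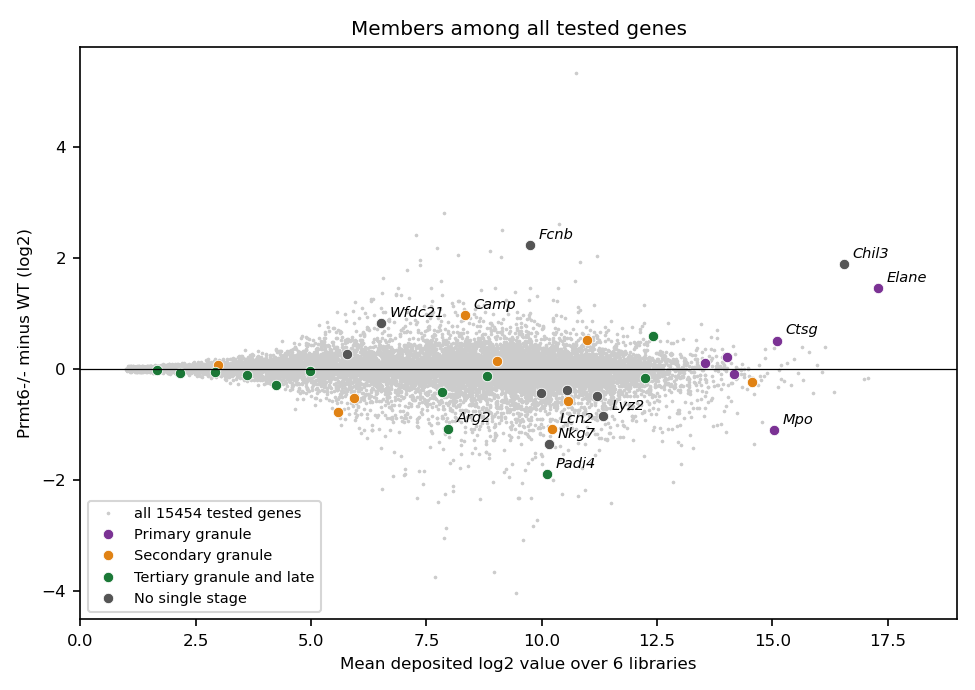
Mean deposited log2 value over the 6 libraries (x axis) against the difference between Prmt6-/- and WT (y axis) for all 15454 tested genes in grey and the members in colour by granule stage. Elane and Chil3 lie at the abundant end with differences of 1.45 and 1.89, and members with means under 5 sit close to 0, where the scale compresses differences.

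Secondary granule genes went both ways. Lcn2 codes for lipocalin 2, which withholds iron from bacteria by binding their siderophores (chromosome 2, 32384633 to 32388252). Its values were 10.74, 10.67 and 10.86 in wild-type cells against 9.56, 9.80 and 9.65 in knockout cells. The groups stood well apart, and Lcn2 fell by 1.09 (SE 0.0767, limma adjusted p = 2.80e-05), to a level 2.12-fold lower. Hp, the gene of the haemoglobin-binding protein haptoglobin, fell by 0.24 (limma adjusted p = 0.00485), a call that ended after quantile normalization, where the difference was -0.02 (adjusted p = 0.615). The calls for the neutrophil collagenase gene Mmp8 (-0.53, limma adjusted p = 0.0251) and for Pglyrp1, a peptidoglycan-binding protein (-0.57, limma adjusted p = 0.0285), ended without wild-type library 1 or 3 or knockout library 1 or 2. The highest adjusted p among those fits was 0.0934 for Mmp8 and 0.103 for Pglyrp1. Both calls also ended in limma without trend (0.0587 and 0.0693), and the authors' deposited table did not call either (adjusted p 0.204 and 0.0955).

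Camp, the gene of the cathelicidin precursor, had values of 7.99, 7.93 and 7.62 in wild-type cells against 8.37, 8.46 and 9.61 in knockout cells. Library 3 stood more than 1 unit above the other knockout libraries, which still lay above the wild type. Camp rose by 0.97 (SE 0.284, limma adjusted p = 0.0281), and by 0.57 without knockout library 3. Leaving out wild-type library 1, 2 or 3 ended this call (adjusted p 0.0563, 0.0605 and 0.0848), as did limma without trend (0.0719). Ngp, which codes for neutrophilic granule protein, a relative of the cathelicidins, had values of 9.10, 8.88 and 8.88 against 8.35, 8.80 and 10.13. Its knockout values ran from below to above the wild type, and the difference of 0.14 did not pass (limma adjusted p = 0.797; -0.38 without knockout library 3, 0.51 without knockout library 1). Ltf, the gene of lactoferrin, was low at 2.96, 2.93 and 2.91 against 2.91, 2.88 and 3.24, with knockout library 3 again the highest. The Ltf difference was 0.08 (limma adjusted p = 0.514).

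Cd177, a surface glycoprotein gene of neutrophils, rose by 0.52, from 10.72 ± 0.42 to 11.24 ± 0.01 (SD, n = 3; limma adjusted p = 0.0422). Its highest wild-type value, 11.19 in library 3, nearly met the knockout values of 11.24, 11.25 and 11.23. The call ended without wild-type library 1 or 2 or any 1 knockout library (adjusted p 0.0915 to 0.133), with no filter on low values (0.0567), under limma without trend (0.0932) and in the authors' deposited table (0.154). Chil1, a chitinase-like gene of secondary granules, stood at 5.35, 5.67 and 6.87 against 5.20, 5.18 and 5.21. All knockout values were below the wild type, with wild-type library 3 far above the others. The Chil1 difference of -0.77 did not pass (limma adjusted p = 0.0923). It was -0.32 without wild-type library 3 (adjusted p = 0.0360), and -1.07 without wild-type library 1 (adjusted p = 0.0285), and the authors' deposited table lists -3.17 as its log2 fold change (adjusted p = 0.00665). Chil1 and Chil3, members of one family, thus had differences of opposite sign.

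Late maturation genes were mostly lower or did not pass. Padi4 codes for the peptidylarginine deiminase that citrullinates histones when neutrophils release chromatin traps (chromosome 4, 140745865 to 140774236). It stood at 10.92, 10.98 and 11.30 in wild-type cells against 8.67, 8.62 and 10.23 in knockout cells. Library 3 lay 1.56 above the higher of the other knockout libraries and still below every wild-type library. Padi4 fell by 1.89 (SE 0.365, limma adjusted p = 0.00404), the deepest fall among the 36 tested members. Arg2, a mitochondrial arginase gene (chromosome 12, 79130777 to 79156301), had values of 8.54, 8.57 and 8.43 against 7.16, 7.61 and 7.56 and fell by 1.07 (SE 0.114, limma adjusted p = 0.000167). The authors' deposited table gives Arg2 a log2 fold change of -1.67.

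The formyl peptide receptor genes Fpr1 and Fpr2, neighbours on chromosome 17 that guide neutrophils toward bacterial peptides, both fell on this scale, by 0.28 (limma adjusted p = 0.00827) and 0.07 (limma adjusted p = 0.0373). They are low genes, at means of 4.37 and 2.18 in the wild type, and the authors' deposited table gives log2 fold changes of -2.67 (adjusted p = 0.00295) and -2.58 (adjusted p = 0.114). The Fpr2 call ended without wild-type library 1 or 3 or knockout library 1 or 2 (adjusted p 0.0702 to 0.116), with no filter on low values (0.0835) and under limma without trend (0.165). Anxa1, the gene of the anti-inflammatory protein annexin A1, fell by 0.16 (limma adjusted p = 0.0228). That call ended without wild-type library 2 or 3 or knockout library 1 or 2 (adjusted p 0.0509 to 0.0928), after quantile normalization (-0.06, adjusted p = 0.342) and after intensity-dependent centring (-0.11, adjusted p = 0.0905). Adam8, a membrane metalloprotease and sheddase gene, was the member of this stage that rose, by 0.59, from 12.11 ± 0.13 to 12.70 ± 0.13 (SD, n = 3; limma adjusted p = 0.000643).

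S100a8 and S100a9 code for the subunits of calprotectin, a metal-binding protein abundant in the cytosol of neutrophils. S100a8 had values of 9.0, 8.71 and 8.93 against 8.33, 8.53 and 9.36, and S100a9 of 8.12, 7.79 and 8.19 against 7.25, 7.37 and 8.24. For both genes knockout libraries 1 and 2 lay below the wild type and library 3 above it. Neither passed, with differences of -0.14 and -0.41 (limma adjusted p = 0.684 and 0.210). Without knockout library 3 both were lower, at -0.45 (adjusted p = 0.0157) and -0.72 (adjusted p = 0.00384), and without knockout library 1 they stood at 0.07 and -0.23. Mmp9, the gelatinase gene that defines tertiary granules, differed by -0.04 (limma adjusted p = 0.701; 0.03 without knockout library 1 and -0.10 without knockout library 3), and the membrane-anchored Mmp25 by -0.06 (limma adjusted p = 0.222; -0.03 without wild-type library 1). Retnlg, the resistin-like gene, had a difference of -0.02 and Stfa2l1, a stefin-like cysteine protease inhibitor gene with close paralogs, of -0.11 (limma adjusted p = 0.501 and 0.0650). Mmp25, Retnlg and Stfa2l1 had means under 4 in both genotypes, where the scale shows little of any difference. Stfa2l1 passed without knockout library 3 (-0.15, adjusted p = 0.0240), after quantile normalization (-0.14, adjusted p = 0.0214) and after intensity-dependent centring (-0.13, adjusted p = 0.0321).

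One knockout library stood apart for a subset of the members. Library 3 exceeded both other knockout libraries by more than 0.5 for 10 of the 36 tested members, against 59 of all 15454 tested genes (0.382%). These members were Mpo, Camp, Ngp, Mmp8, Pglyrp1, Padi4, S100a8, S100a9, Lyz2 and Nkg7, with gaps from 0.54 for Mmp8 to 1.56 for Padi4. They span every stage. Elane, Prtn3, Ctsg, Lcn2, Fcnb and Chil3 did not share this, with gaps between -0.36 for Chil3 and 0.10 for Prtn3. Wild-type library 3 exceeded both other wild-type libraries by more than 0.5 for 4 members, Mpo, Chil1, Cd177 and Nkg7, against 0.466% of all tested genes. Mpo and Nkg7 were thus high in the third library of both genotypes. The genes were grouped here by these gaps, which were noticed in the data, so the counts are descriptions.

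Values of other cell types were set beside this pattern. The summed level of the list of 13 monocyte and macrophage genes in the table, on the log2 scale, was 14.76, 14.80 and 14.75 in knockout libraries 1, 2 and 3. That sum is carried by Ly6c2, at 14.36 to 14.56 in the 6 libraries, and says little of the other genes. Library 3 was the highest knockout library for 33.8% of all tested genes and for 26 of the 36 tested members. Wild-type library 3 was also the highest of its group for 22 of the 36 members, against 36.6% of all tested genes. Knockout library 3 was the highest for 8 of 12 tested monocyte and macrophage genes and for 6 of 9 eosinophil, basophil and mast cell genes. For the granule trafficking and release genes described below it was the highest in 10 of 16. The counts were 5 of 11 for mature neutrophil surface genes, 4 of 9 for lymphoid genes and 3 of 10 for erythroid and megakaryocyte genes. From the monocyte and the eosinophil lists F13a1 (0.64), Siglecf (0.53) and Prg2 (0.56) also exceeded both other knockout libraries by more than 0.5. For the list of mature neutrophil surface genes the summed level was 13.56, 13.51 and 13.58, and Ly6g stood at 1.92, 1.93 and 1.93. For eosinophil, basophil and mast cell genes it was 11.28, 11.36 and 11.31. For lymphoid genes, which include Nkg7, it was 9.87, 9.85 and 10.91, highest in library 3. Nkg7, itself among the members with this pattern, was the highest gene of the lymphoid list, at 8.95, 9.02 and 10.48. The lymphoid sum is therefore not separate from the pattern. Cd79b, the next highest, stood at 8.38, 8.24 and 8.63. The part of these cell types in the pattern was not tested. Without knockout library 3, 8 members were called higher and 18 lower, and of the tertiary and late group 8 were lower. The members of that stage that gained a call by leaving it out were S100a8, S100a9 and Stfa2l1.

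**Figure D4:**
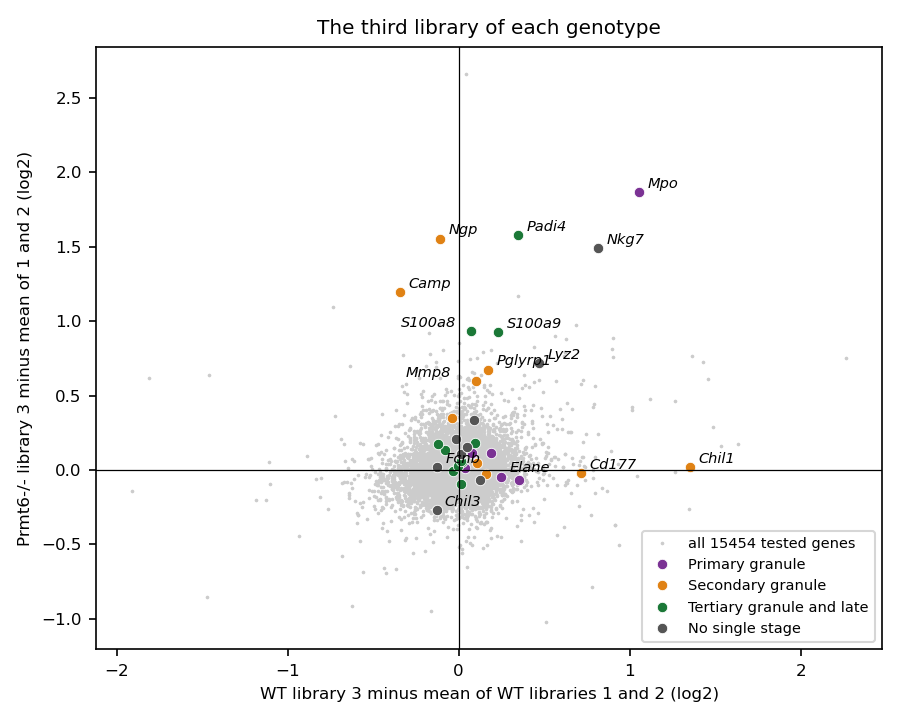
For each tested gene, WT library 3 minus the mean of WT libraries 1 and 2 (x axis) against Prmt6-/- library 3 minus the mean of Prmt6-/- libraries 1 and 2 (y axis), both in log2 units, with all genes in grey and members in colour by stage. Mpo and Nkg7 lie high on both axes, Ngp, Camp and Padi4 high in the knockout library, Chil1 and Cd177 high in the wild-type library, and Elane, Fcnb and Chil3 near 0.

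Genes that handle, move or regulate granule proteins were read from lists of further genes. Of 16 granule trafficking and release genes 12 fell and 0 rose (median -0.36), where 18.0% of all tested genes fell. Sytl1, a synaptotagmin-like effector of Rab27 proteins, fell by 0.89 (limma adjusted p = 0.000172). Vamp8, a SNARE protein of granule fusion, fell by 0.76, the granule-priming factor Unc13d by 0.63 and the SNARE protein Stx7 by 0.57 (limma adjusted p = 0.000530, 0.000227 and 0.000231). The other 4 lay between 0.01 and 0.08 in size and did not pass. Rab27a itself, described above, fell with them. The fall of 12 became 10 or 11 when any 1 library was left out.

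Of 11 regulators of granulopoiesis 3 rose and 4 fell, a share of 63.6% called against 33.0% of all tested genes (median -0.05). Spi1, the gene of PU.1, stood at 14.17, 14.29 and 14.23 against 13.12, 13.08 and 13.41 and fell by 1.02 (SE 0.0816, limma adjusted p = 4.31e-05). Cebpd fell by 1.18 (limma adjusted p = 6.83e-05). Cebpb, linked to emergency granulopoiesis, had values of 9.28, 7.84 and 6.65 against 6.19, 6.15 and 6.03, with the wild-type libraries widely spread and all above the knockout. It fell by 1.80 (limma adjusted p = 0.0248), by 1.12 without wild-type library 1, and the call ended without wild-type library 2 or any 1 knockout library (adjusted p 0.0591 to 0.0693) and in limma without trend (0.0679). Ets1, an ETS family factor, rose by 2.01 (limma adjusted p = 6.55e-07). Cebpe, the C/EBP factor tied to secondary granule genes, differed by -0.22 (95% interval -0.47 to 0.03), Gfi1 by -0.03 and Cebpa by -0.05, and none of these passed (limma adjusted p = 0.164, 0.824 and 0.809).

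Among 13 genes of protease handling and inhibition 3 rose and 2 fell, a share of 38.5% called, near the 33.0% of all tested genes (median 0.02). Prss57, a serine protease stored in primary granules, had values of 10.50, 10.49 and 10.85 against 8.56, 8.62 and 9.76, with knockout library 3 again the highest of its group. It fell by 1.63 (SE 0.278, limma adjusted p = 0.00209). Serpina3g, a serine protease inhibitor gene of a family with near-identical copies, fell by 1.58 (limma adjusted p = 0.000424). The cysteine protease inhibitor Cst3 rose by 0.46 and the serpin Serpinb6a by 0.44 (limma adjusted p = 0.000442 and 0.00182). Ctsc, whose product activates the granule serine proteases by trimming them, differed by 0.11 (95% interval -0.06 to 0.29) and did not pass.

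**Figure D5:**
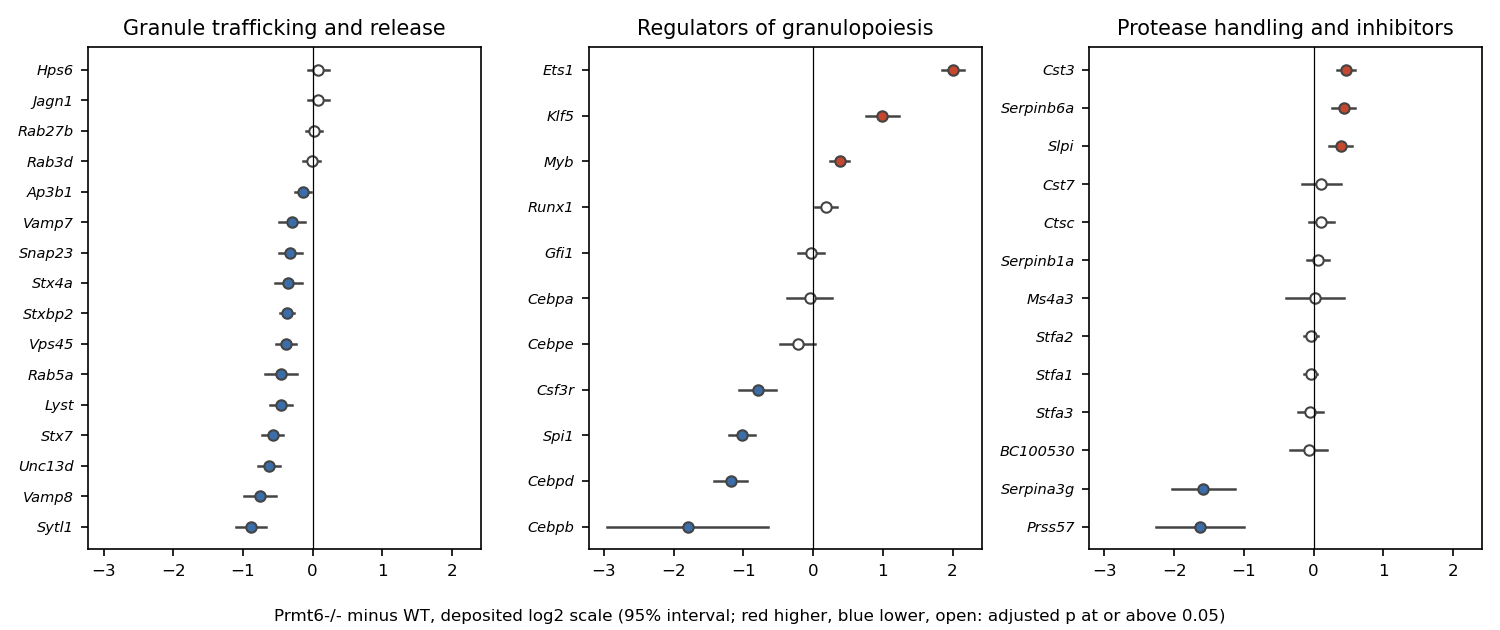
Difference between Prmt6-/- and WT on the deposited log2 scale, with 95% limma intervals, for genes of granule trafficking and release, regulators of granulopoiesis, and protease handling; red points were higher, blue points lower and open points did not pass. In the trafficking panel 12 of 16 points are blue and 0 red, while the other panels hold both colours.

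Markers of neighbouring lineages were read in the same way. Of 11 mature neutrophil surface genes 1 rose and 3 fell, a share of 36.4% called, near the 33.0% of all tested genes. Cxcr2, the chemokine receptor that releases neutrophils from the marrow, rose by 1.18 (limma adjusted p = 9.34e-05). The integrin subunit Itgam, the G-CSF receptor Csf3r and the activating receptor Trem1 fell, with differences of -1.08, -0.79 and -0.45 (limma adjusted p = 0.000120, 0.000993 and 0.00236). Csf3r was also on the list of granulopoiesis regulators and was counted as a fall in both lists. Of 12 tested monocyte and macrophage genes 2 rose and 4 fell (50% called), with differences of -1.83 for Csf1r, -1.55 for F13a1, -0.94 for Cd68 and 1.07 for Ccr2 (limma adjusted p = 4.40e-05, 0.00440, 0.000123 and 2.80e-05). The summed level of the 13 genes of that list in the table was 14.94 to 15.03 in the wild type and 14.75 to 14.80 in the knockout, and Mrc1 did not pass the low-value filter. For the 14 eosinophil, basophil and mast cell genes it was 11.52 to 11.91 and 11.28 to 11.36, and among 9 tested 2 rose and 3 fell (55.6% called). Hdc, the histidine decarboxylase gene, and Siglecf, an eosinophil surface lectin gene, had differences of -1.60 and -1.40 (limma adjusted p = 0.000228 and 0.000282). The mast cell carboxypeptidase gene Cpa3 fell by 0.60 (limma adjusted p = 0.0183), a call that ended without wild-type library 1 (0.0541) or knockout library 3 (0.0611). The transcription factor gene Gata2 rose by 0.33 (limma adjusted p = 0.0441). That call ended without wild-type library 2 or 3 or knockout library 1 or 2 (adjusted p 0.111 to 0.153), with no filter on low values (0.0614) and under limma without trend (0.0802).

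For erythroid and megakaryocyte genes the summed level was 6.90 to 6.94 in the wild type and 6.95 to 7.01 in the knockout. Of 10 tested 1 rose (10.0% called), the erythroid factor gene Klf1, by 0.22 (limma adjusted p = 0.0171), a call that ended without wild-type library 1 or 3 or knockout library 2 (adjusted p 0.0537 to 0.0602). For lymphoid genes the summed level was 11.17 to 11.77 and 9.85 to 10.91. The highest gene in that sum was the member Nkg7, at 10.46 to 11.39 in the wild type and 8.95 to 10.48 in the knockout. Of 9 tested lymphoid genes 1 rose and 2 fell (33.3% called, near that of all tested genes). Nkg7 and the B-cell receptor component gene Cd79b (-1.15, limma adjusted p = 6.52e-05) fell, and the T-cell receptor component gene Cd3d rose by 0.44 (limma adjusted p = 0.00120). With 1 library left out, lower lymphoid calls ran from 1 to 3, the highest without knockout library 3. Cd3e was below the filter. The part of other cell types in the granule gene values was not tested.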

How the data were processed

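Poly(A) RNA of 6 libraries was sequenced, 3 per genotype, with 15 PCR cycles per the labels' protocols. Tools named in the submitters' processing notes were Trim Galore (read trimming), kallisto (transcript quantification) and HOMER, with no version, and the build was GRCm38. Per the file headers, HOMER's differential expression command wrote the table from counts. The authors deposited log2 values, whose transformation is not named, and, from a test not named there, each gene's log2 fold change, p-value and adjusted p-value. The counting annotation and strand setting are not given in the sources used here.

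Of 30038 rows, 1 (0.00333%) names no gene and was left out. The deposited log2 values were fitted as they stand with limma 3.58.1 in R 4.3.3 (two-sided, mean-variance trend, Benjamini-Hochberg adjustment over 15454 genes, threshold 0.05); no pseudocount was added. Errors are limma's SE, or SD over 3 libraries. The fit was tested on simulated data. Depth is unknown, so no counting interval is given. Positions come from GENCODE M21, and promoter windows from RefSeq (GRCm38.p6).

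The members and lists were chosen with earlier results of these data known. All members are accounted for; values per library are given for members called with a difference of at least 1 and for a fixed set of defining genes, and of every other list up to 4 called genes with the largest difference. Further genes were picked with their values in view. Libraries were treated as unpaired. Alternatives were quantile normalization, intensity-dependent centring, other filters, no trend, a replicate block, the authors' test, and leaving out each library.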

Additional observations from a re-analysis of the deposited data

How the results depend on the processing

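Of 23 called members, 13 kept their call in every alternative in which they were tested (6 higher and 7 lower); the report gives the exceptions, whose causes were not tested unless noted. Members called numbered 7 to 9 higher and 8 to 18 lower when 1 library was left out, against 9 and 14. By stage, those ranges were 2 to 3 higher and 0 to 1 lower for primary, 0 to 1 and 2 to 4 for secondary, 1 to 1 and 3 to 8 for tertiary and late, and 3 to 4 and 3 to 5 for genes of no single stage. Each such fit has fewer samples. Primary granule genes called higher numbered 4 after quantile normalization and 4 after intensity-dependent centring. With the replicate number as a block, 1 primary gene, Mpo, was called lower; the block also added Prtn3 and ended no member's call. Same-numbered libraries share only a number in the labels, and their deviations from the group means correlated at 0.0948, 0.0727 and 0.172. Each wild-type library correlated best with the knockout library of its own number. With 3 libraries per genotype such a match can arise without pairing, and the design states none. Secondary granule genes called higher numbered 1 without the low-value filter, 0 in limma without trend and 1 by the authors' deposited test, and those called lower 2 in limma without trend. The stricter filter, which tests fewer genes, left 3 tertiary and late genes called lower. Signs turned for Srgn after quantile normalization (0.06), for Ltf and Ngp without knockout library 3, and for Mmp9 and S100a8 without knockout library 1. With 1 library left out, Ltf ran from -0.04 to 0.14, Ngp from -0.38 to 0.51, Mmp9 from -0.10 to 0.03 and S100a8 from -0.45 to 0.07. None of these 5 was called with all libraries. Low members limit the reading: on the deposited scale differences of genes with means under 5 are strongly compressed. Those of genes with means of 5 to under 10 are compressed less, with a median ratio of 0.674 to the authors' log2 fold change.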
